A study of Caenorhabditis elegans with 18 samples.

Results

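The mir-51 family of Caenorhabditis elegans consists of mir-51, mir-52, mir-53, mir-54, mir-55 and mir-56. They were taken by name and are 6 of the 175 miRNAs listed per library. Small RNA of young adult worms was sequenced in 6 genotypes with 3 libraries each, 18 in all, from animals kept at 25 °C. The genotypes were wild type (the Bristol strain N2), the single mutants alg-1(gk214), alg-2(ok304) and dpf-3(xe68), whose genes lie on chromosomes X, II and I, and the double mutants that join the dpf-3 allele to the alg-1 or to the alg-2 allele, written dpf-3;alg-1 and dpf-3;alg-2. ALG-1 and ALG-2 are the Argonaute proteins that carry most miRNAs of the worm, and DPF-3 is a dipeptidyl peptidase. The comparisons ask how the level of each family member moves when an Argonaute or the peptidase is mutated, and whether the effect of dpf-3 depends on the Argonaute background. Nothing in the labels says that the 3 libraries of a genotype came from separate cultures, so p-values measure only how far these libraries scatter, and that scatter may be technical. Each mutation is represented by a single allele.

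A miRNA is cut from a hairpin precursor, is loaded into an Argonaute protein and guides it to messenger RNAs that pair with its seed near the 5′ end. The mir-51 family carries the seed of miR-99 and miR-100 of vertebrates, an old animal seed group whose members pair with overlapping sets of targets. In C. elegans the loss of a single member has little visible effect, whereas loss of the whole family arrests embryos, and the mir-35 family is another miRNA group that embryos cannot do without. The members come from 3 places in the genome. In the reference annotation the genes of mir-51 and mir-53 are neighbours, those of mir-54, mir-55 and mir-56 lie together, and mir-52 has no miRNA gene beside it. The mature forms of mir-52 and mir-53 are nearly the same sequence, and 15 of the 17 fractional values among the 108 member counts belonged to these 2 miRNAs. How reads were divided between mir-52 and mir-53 can therefore move both.

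Library totals ran from 7.78 to 22.5 M (mega) counts, and the lowest count of a member was 11426.5, with a counting error of 0.935%, so that spread between libraries and not depth limited the comparisons. A name of the library is given in the labels for both genotypes with the alg-2 allele (6 libraries) and for none of the other 12 libraries. For any contrast between a genotype of one set and a genotype of the other, set and genotype cannot be told apart. Markers of muscle, intestine, neurons and glia were present in every library, and the miRNAs of oocytes and embryos (the mir-35 family) summed to 12.6% ± 0.916 of the counts in wild type, 6.23% ± 2.45 in the dpf-3;alg-1 double mutant, 2.42% ± 0.680 in dpf-3 and 0.339% to 0.453% in the other 3 genotypes (SD, n = 3). 1 library stood apart on the family. Wild type replicate 1 was 0.74, 0.53 and 0.86 lower on the log2 scale than the mean of the other 2 wild type libraries for mir-51, mir-55 and mir-56, and 0.24, 0.35 and 0.21 higher for mir-52, mir-53 and mir-54. Its root mean square deviation over the 6 members was 0.547, against 0.047 to 0.389 in the other 17 libraries, so contrasts with wild type are also given without it.

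Together the 6 members made up 6.95% ± 0.481 of all counts in wild type and 12.4% ± 0.437 in alg-1 (SD, n = 3). In single libraries the family took 6.39%, 7.28% and 7.16% in wild type, and 11.9%, 12.4% and 12.8% in alg-1, with no overlap. The share was 8.77% ± 0.356 in the dpf-3;alg-1 worms, 8.38% ± 0.336 in alg-2, 7.60% ± 0.599 in dpf-3 and 7.10% ± 0.303 in dpf-3;alg-2. With the mir-35 family left out of the total, the order kept alg-1 on top at 12.4% ± 0.439 and dpf-3;alg-1 next at 9.35% ± 0.208, while alg-2 was at 8.42% ± 0.341, wild type at 7.95% ± 0.629, dpf-3 at 7.78% ± 0.570 and dpf-3;alg-2 at 7.13% ± 0.304. In RNA from whole worms, more cells that hold a miRNA and more of that miRNA per cell cannot be told apart.

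The members were expressed at very different levels. Levels in CPM (the read count relative to the library total, which is first multiplied by a composition factor) ranked mir-52 as the 9th most abundant of the 139 tested miRNAs in wild type, mir-55 as the 22nd, mir-51 as the 23rd, mir-56 as the 25th, mir-54 as the 34th and mir-53 as the 46th. mir-52 alone made up 39.3% ± 7.54 of the family in wild type, mir-55 18.0% ± 2.28, mir-51 17.7% ± 3.68, mir-56 14.9% ± 3.58, mir-54 7.89% ± 1.47 and mir-53 2.09% ± 0.499. In alg-1 worms mir-52 rose to the 4th place, mir-51 to the 10th, mir-54 to the 17th and mir-53 to the 26th, while mir-55 was 20th and mir-56 was 19th.

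**Figure D1:**
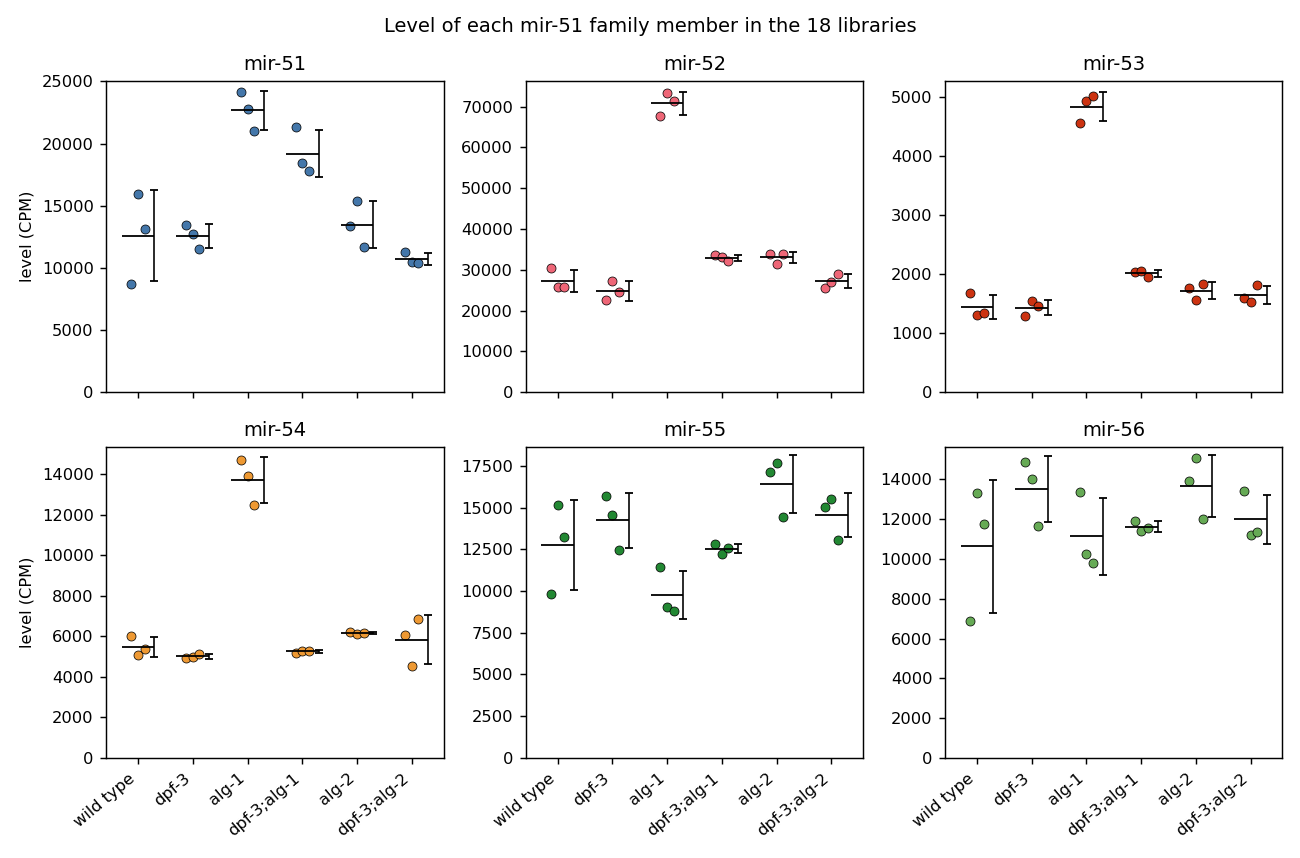
Level of each mir-51 family member in CPM (linear axis from 0) by genotype, with 1 point per library, a line at the mean and an error bar of 1 SD (n = 3). mir-52, mir-53 and mir-54 stand highest in alg-1 with no overlap with any other genotype, while mir-55 has its lowest mean there on this scaling, and the libraries of mir-56 overlap between alg-1 and wild type.

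In alg-1 mutants 4 of the 6 members were higher than in wild type and 1 was lower. mir-53 was 3.34-fold, mir-52 2.59-fold, mir-54 2.50-fold and mir-51 1.80-fold higher, mir-55 was 1.31-fold lower, with a sign that turned under upper quartile scaling, and mir-56 did not pass the test. Calls are at an adjusted p below 0.05 (edgeR quasi-likelihood test, Benjamini-Hochberg over 139 miRNAs), and in this contrast 42.4% of all tested miRNAs were called higher and 41.7% lower. A call as such was therefore common. Lack of overlap between libraries, wherever it is given in this report, is a description, and its share over all tested miRNAs was not counted. The median log2 change was 1.08 over the 6 members and -0.08 over all tested miRNAs.

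mir-52, the most abundant member, stood at 30419, 25712 and 25848 CPM in wild type replicates 1 to 3 and at 67739.5, 73453 and 71294 CPM in alg-1. Every alg-1 library lay far above every wild type library. The log2 change was 1.37 (SE 0.09, adjusted p = 2e-10). Its near-identical relative mir-53, the least abundant member, went from 1687, 1310.3 and 1346 CPM to 4557, 4934 and 5019 CPM, again with no overlap. This gave a log2 change of 1.74 (SE 0.11, adjusted p = 1.2e-10). Counted as a single miRNA, mir-52 and mir-53 together rose by 1.42 on the log2 scale (adjusted p = 1.4e-10), a value that does not depend on how reads were divided between them.

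mir-54, which had the lowest mean of its genomic group of 3 in wild type and the highest in alg-1, moved in the same way, from 6036, 5057 and 5354 CPM to 14719.9, 13930.5 and 12469.8 CPM, a log2 change of 1.32 (SE 0.12, adjusted p = 1.1e-08). Its neighbours mir-55 and mir-56 did not. mir-55 had 9829, 15196 and 13252 CPM in wild type and 11429, 9030.4 and 8815 CPM in alg-1, where wild type replicate 1 lay within the alg-1 range. Its log2 change was -0.39 (SE 0.14, adjusted p = 0.019), and this call was lost without wild type replicate 2 (-0.24) or 3 (-0.36) or without alg-1 replicate 2 (-0.33) or 3 (-0.32), and its sign turned with upper quartile scaling (0.78). mir-56 had 6869, 13294 and 11739.9 CPM in wild type and 13358, 10234 and 9822 CPM in alg-1, with overlapping libraries, a log2 change of 0.07 and a 95% interval from -0.32 to 0.46 (adjusted p = 0.74). With upper quartile scaling, under which 94 of all 139 miRNAs were called higher, mir-56 was called as well (1.23).

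mir-51, which shares its locus with mir-53, was intermediate. It had 8676, 15956 and 13164 CPM in wild type and 24177, 22797 and 21029 CPM in alg-1, so the lowest alg-1 library lay above the highest wild type library. The log2 change was 0.85 (SE 0.16, adjusted p = 9.7e-05). Leaving out wild type replicate 1 gave log2 changes of 0.64 for mir-51 (adjusted p = 0.00019), 1.46 for mir-52 (adjusted p = 5.4e-10), 1.86 for mir-53 (adjusted p = 1.6e-10), 1.40 for mir-54 (adjusted p = 6e-08), -0.54 for mir-55 (adjusted p = 0.0011) and -0.17 for mir-56 (adjusted p = 0.28). The same 5 members were then called in the same directions.

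**Figure D2:**
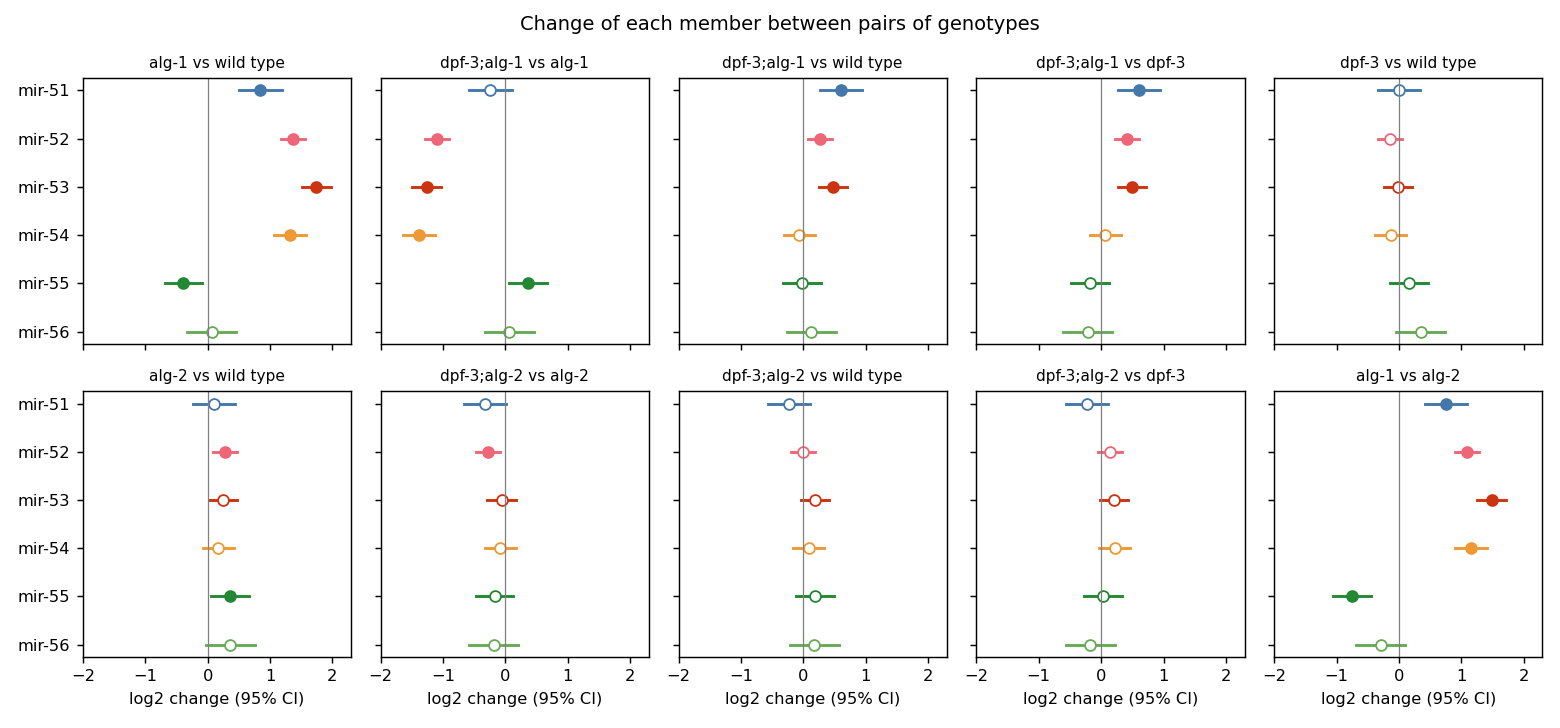
Log2 change of each member with its 95% interval in the contrasts of genotypes, from edgeR's quasi-likelihood fit of all 18 libraries. mir-52, mir-53 and mir-54 lie between 1.32 and 1.74 in alg-1 against wild type and between -1.10 and -1.38 in dpf-3;alg-1 against alg-1, whereas the changes of dpf-3 and alg-2 against wild type lie between -0.14 and 0.36. Filled points passed the test.

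When dpf-3 was mutated as well, mir-52, mir-53 and mir-54 were lower than in alg-1 alone. In dpf-3;alg-1 against alg-1, mir-54 was 2.61-fold, mir-53 2.40-fold and mir-52 2.15-fold lower, mir-55 was 1.29-fold higher, with a sign that turned under upper quartile scaling, and mir-51 and mir-56 did not pass the test. Among all tested miRNAs 34.5% were called higher and 41.7% lower in this contrast, which shares the alg-1 libraries with the contrast before it. The median log2 change was -0.67 over the members and -0.14 over all tested miRNAs.

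In the double mutant mir-52 was measured at 33573, 33167 and 32169 CPM, a log2 change of -1.10 from alg-1 (SE 0.09, adjusted p = 5.1e-09). mir-53 had 2039, 2057 and 1952 CPM, a log2 change of -1.26 (SE 0.11, adjusted p = 7.2e-09). mir-54 had 5178, 5289 and 5298 CPM, a log2 change of -1.38 (SE 0.12, adjusted p = 7.6e-09). For these 3 members every dpf-3;alg-1 library lay below every alg-1 library, and the 3 replicates of the double mutant lay close together. The summed pair of mir-52 and mir-53 fell by 1.09 on the log2 scale (adjusted p = 5.4e-09).

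mir-51 did not pass the test between alg-1 and the double mutant, where it was at 21357, 18436 and 17788 CPM. The highest of these libraries lay within the alg-1 range, and the log2 change from alg-1 was -0.24 with a 95% interval from -0.58 to 0.10 (adjusted p = 0.18). It was called lower with upper quartile scaling (-1.36, adjusted p = 2.1e-07), as were 101 of all 139 miRNAs. mir-55 had 12823, 12257 and 12575 CPM, all above the alg-1 libraries, with a log2 change of 0.36 (SE 0.14, adjusted p = 0.029). That call was lost without alg-1 replicate 2 (0.31) or 3 (0.30) or without dpf-3;alg-1 replicate 1 (0.35) or 3 (0.36), and its sign turned with upper quartile scaling (-0.76). mir-56 had 11927, 11385 and 11548 CPM and a log2 change of 0.06 with an interval from -0.33 to 0.45 (adjusted p = 0.77), which under upper quartile scaling was -1.06.

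The double mutant was not at the wild type level for every member. Against wild type, mir-51 was 1.52-fold, mir-53 1.39-fold and mir-52 1.21-fold higher in dpf-3;alg-1, with log2 changes of 0.61 (SE 0.16, adjusted p = 0.004), 0.48 (SE 0.11, adjusted p = 0.0013) and 0.27 (SE 0.09, adjusted p = 0.016), and no overlap between the libraries. The background in this contrast was 25.9% called higher and 30.9% called lower. mir-54 showed a log2 change of -0.06 with an interval from -0.31 to 0.19, mir-55 of -0.02 with an interval from -0.33 to 0.28, and mir-56 of 0.13 with an interval from -0.26 to 0.52. Without wild type replicate 1 the changes of mir-51, mir-53 and mir-52 were 0.40, 0.60 and 0.35, and all 3 stayed called. The call of mir-52 was lost without wild type replicate 2 (0.23) or replicate 3 (0.23), with DESeq2 (adjusted p = 0.055), with RLE (adjusted p = 0.056) or upper quartile scaling (adjusted p = 0.063), and when the 2 genotypes were fitted alone (adjusted p = 0.052).

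Set against dpf-3 alone, the same 3 members were higher in dpf-3;alg-1, by log2 changes of 0.61 for mir-51 (SE 0.16, adjusted p = 0.0033), 0.41 for mir-52 (SE 0.09, adjusted p = 0.00084) and 0.49 for mir-53 (SE 0.11, adjusted p = 0.00084). The background was 28.8% higher and 29.5% lower. mir-54, mir-55 and mir-56 had log2 changes of 0.07, -0.18 and -0.22 and were not called, with adjusted p of 0.64, 0.28 and 0.33. The libraries of the 3 called members did not overlap, and neither did those of mir-54, which was not called. With upper quartile scaling the 3 calls were lost (log2 changes of 0.34 for mir-51, 0.14 for mir-52 and 0.22 for mir-53), and mir-55 (-0.45) and mir-56 (-0.49) were called lower. The contrasts with wild type and with dpf-3 share the double mutant libraries.

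In dpf-3 mutants no member passed the test against wild type. Its 3 libraries had 13408, 12749 and 11513 CPM of mir-51, 22562, 27309.7 and 24450.2 CPM of mir-52 and 1295, 1545 and 1455 CPM of mir-53. For mir-54 they had 4913, 4989.8 and 5121 CPM, for mir-55 15730.0, 14569 and 12477 CPM, and for mir-56 14868, 14044 and 11643 CPM. All 6 members overlapped with wild type. Log2 changes ran from -0.14 for mir-52, with an interval from -0.33 to 0.05, to 0.35 for mir-56, with an interval from -0.05 to 0.74. By edgeR 0 members were called, 0 had an unadjusted p below 0.05 and DESeq2 and limma-voom called 0, while 15.8% of all tested miRNAs were called higher and 18% lower. The value of mir-56 rested on the wild type libraries, since it was 0.54 and called (adjusted p = 0.04) without wild type replicate 2 and 0.11 without replicate 1. Without wild type replicate 1 the 6 log2 changes ran from -0.21 for mir-51 to 0.11 for mir-56 and 0 were called. With upper quartile scaling mir-55 (0.48) and mir-56 (0.66) were called higher, as were 57 of all 139 miRNAs, and mir-51, mir-52, mir-53 and mir-54 turned from below to above 0 (0.18 to 0.31) without a call.

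Whether dpf-3 acted differently in the alg-1 background was tested as a difference of 2 changes, (dpf-3;alg-1 minus alg-1) minus (dpf-3 minus wild type). This difference was -0.96 for mir-52 (SE 0.13, adjusted p = 2.8e-06), -1.25 for mir-53 (SE 0.15, adjusted p = 1.2e-06) and -1.25 for mir-54 (SE 0.17, adjusted p = 3e-06) on the log2 scale. It was not called for mir-51 (-0.24, adjusted p = 0.38), mir-55 (0.20, adjusted p = 0.4) or mir-56 (-0.28, adjusted p = 0.37). Across all tested miRNAs 28.8% had a positive and 40.3% a negative difference at the threshold. Without wild type replicate 1 the 3 called differences were -1.05, -1.37 and -1.33. With upper quartile scaling mir-51 (-1.67), mir-55 (-1.23) and mir-56 (-1.72) were called negative too, along with 104 of all 139 miRNAs.

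In alg-2 mutants 2 of the 6 members passed the test against wild type, both higher. The 3 alg-2 libraries had 33903, 31511 and 33896 CPM of mir-52, all above wild type, and the log2 change was 0.28 (SE 0.09, adjusted p = 0.019). mir-55 had 17149, 17700.1 and 14433 CPM, of which the lowest overlapped with wild type, and a log2 change of 0.36 (SE 0.14, adjusted p = 0.049). These were the 2 members called of 6, with a background of 26.6% higher and 18.7% lower. The mir-55 call was lost without wild type replicate 1 (0.21) or 3 (0.39) or without alg-2 replicate 1 (0.33) or 2 (0.31). The mir-52 call was lost without wild type replicate 2 (0.23) or 3 (0.24) or without alg-2 replicate 1 (0.26) or 3 (0.26), with RLE scaling (adjusted p = 0.079), with DESeq2 (adjusted p = 0.082) and with the strict filter on low counts (adjusted p = 0.16), and over all its alternatives it was lost in 10 of 18. With the replicate number as a block the mir-52 call was left and that of mir-55 was not. With the block within each library set neither was left (adjusted p = 0.16 and 0.15). That last fit takes replicate 1 as the reference in each set. Across the sets it therefore compares fitted replicate 1 levels and not genotype means, so it cannot decide whether these 2 calls hold.

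The other members did not pass the test in alg-2. mir-51 had 13402, 15392 and 11646 CPM, mir-53 1768, 1558 and 1841 CPM, mir-54 6219, 6112 and 6144 CPM and mir-56 13918, 15094 and 12003 CPM. Their log2 changes from wild type were 0.10, 0.25, 0.17 and 0.36, with adjusted p of 0.65, 0.066, 0.25 and 0.12. The mir-54 libraries did not overlap with wild type although mir-54 was not called. The change of mir-53 was called without wild type replicate 1 (0.38, adjusted p = 0.0093) or alg-2 replicate 2 (0.32, adjusted p = 0.034), and that of mir-56 without wild type replicate 2 (0.56, adjusted p = 0.03). Without wild type replicate 1, mir-56 was at 0.13 (adjusted p = 0.49), mir-51 at -0.11 and mir-54 at 0.24, none of them called. In that fit mir-52 was at 0.36 and stayed called (adjusted p = 0.0067). All 6 members were called higher in alg-2 with upper quartile scaling, as were 104 of all 139 miRNAs. All these values cross the 2 library sets.

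Within the set that carries the library name label, 1 of the 6 members passed the test in dpf-3;alg-2 against alg-2. mir-52 had 25667, 27118 and 29039 CPM in dpf-3;alg-2, all below alg-2, with a log2 change of -0.28 (SE 0.09, adjusted p = 0.036). The call was lost without alg-2 replicate 1 (-0.26) or 3 (-0.26) or dpf-3;alg-2 replicate 1 (-0.24) or 2 (-0.28), and with the replicate number as a block (adjusted p = 0.057). The background in this contrast was 12.9% higher and 5.76% lower. mir-51 had 11260.4, 10457 and 10394 CPM, also below every alg-2 library, with a log2 change of -0.33 that did not pass (95% interval -0.67 to 0.01, adjusted p = 0.18).

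The remaining 4 members overlapped between alg-2 and dpf-3;alg-2. dpf-3;alg-2 libraries had 1602, 1529 and 1819 CPM of mir-53, 6085, 4518 and 6879 CPM of mir-54, 15061, 15528 and 13059 CPM of mir-55 and 13422, 11216 and 11347 CPM of mir-56. Log2 changes from alg-2 were -0.06, -0.08, -0.18 and -0.19 in that order, with adjusted p from 0.48 to 0.8. On the log2 scale mir-54 ranged more widely here than in the other 5 genotypes, with dpf-3;alg-2 replicate 2 lowest and replicate 3 highest.

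Compared with wild type, dpf-3;alg-2 worms had no member called by edgeR (0 of 6, and 0 at an unadjusted p below 0.05), with log2 changes from -0.24 for mir-51 to 0.19 for mir-55 and a background of 28.8% higher and 18.7% lower. DESeq2 and limma-voom also called 0. Without wild type replicate 1, mir-51 was called lower (-0.44, adjusted p = 0.0098) and mir-53 higher (0.31, adjusted p = 0.022). All 6 members were called higher with upper quartile scaling, among them mir-51 (0.63) and mir-52 (0.86), whose signs turned, and so were 111 of all 139 miRNAs. Compared with dpf-3, again 0 were called by edgeR, DESeq2 or limma-voom and 0 had an unadjusted p below 0.05, with log2 changes from -0.23 for mir-51 to 0.22 for mir-54 and a background of 18% higher and 11.5% lower. The mir-51 libraries did not overlap between dpf-3;alg-2 and dpf-3 although mir-51 was not called. Without dpf-3;alg-2 replicate 2 mir-54 was called higher against dpf-3 (0.37, adjusted p = 0.0083). With upper quartile scaling mir-52 (0.68), mir-53 (0.75), mir-54 (0.76) and mir-55 (0.58) were called higher, among 94 of all 139 miRNAs, and the signs of mir-51 (0.32) and mir-56 (0.38) turned.

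The effect of dpf-3 in alg-2 worms did not differ detectably from its effect in wild type for any member. By edgeR 0 of the 6 differences passed, 0 at an unadjusted p below 0.05 and 0 with DESeq2 or limma-voom, and the widest was -0.53 for mir-56, with an interval from -1.09 to 0.02. Without wild type replicate 2 it was -0.73 and passed (adjusted p = 0.046), and without wild type replicate 1 it was -0.30 (adjusted p = 0.26). The same difference was -0.81 with upper quartile scaling and passed (adjusted p = 0.035), along with 33 negative differences over all 139 miRNAs. The background was 16.5% positive and 11.5% negative. The effect of dpf-3 in alg-1 worms did differ from its effect in alg-2 worms, by -0.82 for mir-52 (SE 0.13, adjusted p = 1.5e-05), -1.20 for mir-53 (SE 0.15, adjusted p = 1.7e-06), -1.30 for mir-54 (SE 0.17, adjusted p = 1.8e-06) and 0.54 for mir-55 (SE 0.20, adjusted p = 0.026). In that test 30.9% of all miRNAs had a positive and 35.3% a negative difference. The mir-55 difference no longer passed without alg-1 replicate 2 (0.49) or 3 (0.47), alg-2 replicate 1 (0.51) or 2 (0.48) or dpf-3;alg-2 replicate 3 (0.47), and its sign turned with upper quartile scaling (-0.63), under which all 6 members and 96 of all 139 miRNAs had a negative difference at the threshold.

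Set side by side, the 2 Argonaute mutants differed in 5 of the 6 members. In alg-1 against alg-2, mir-53 was 2.81-fold, mir-54 2.23-fold, mir-52 2.14-fold and mir-51 1.68-fold higher, and mir-55 was 1.68-fold lower, each with no overlap between libraries. The log2 changes were 1.49 (SE 0.11, adjusted p = 9.6e-10), 1.15 (SE 0.12, adjusted p = 6.6e-08), 1.10 (SE 0.09, adjusted p = 4.1e-09), 0.75 (SE 0.16, adjusted p = 0.00034) and -0.75 (SE 0.14, adjusted p = 0.00011). mir-56 had a log2 change of -0.30 (adjusted p = 0.14), which was -0.45 and called without alg-1 replicate 1 (adjusted p = 0.048) and 0.05 with upper quartile scaling. The background was 41.7% higher and 41% lower, the alg-1 libraries are the same as above, and the contrast crosses the library sets. How many of all tested miRNAs showed no overlap here was not counted.

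Over all 6 genotypes the order of the levels fell into patterns. mir-52, mir-53 and mir-54 were highest in alg-1 and separated from the next genotype with no overlap. For mir-53 dpf-3;alg-1 came next, above alg-2 without overlap, while for mir-52 dpf-3;alg-1 and alg-2 overlapped and both lay above the wild type libraries. mir-51 was highest in alg-1 and next in dpf-3;alg-1, which overlapped with each other, and dpf-3;alg-1 lay above alg-2 without overlap. mir-55 was highest in alg-2, followed by dpf-3;alg-2, dpf-3, wild type and dpf-3;alg-1, each overlapping with the next, and alg-1 lay below dpf-3;alg-1 without overlap. For mir-56 all neighbours in the order overlapped, from alg-2 at 13672 ± 1560.2 CPM to wild type at 10635 ± 3352 CPM (SD, n = 3).

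Ratios of 2 members within a library do not depend on scaling. The ratio of mir-55 to mir-54, which share a genomic group, was 1.63, 3.005 and 2.48 in wild type and 0.776, 0.648 and 0.707 in alg-1, so mir-54 exceeded mir-55 in the 3 alg-1 libraries and in none of the other 15. The ratio was 3.24-fold lower in alg-1, a log2 difference of -1.70. A two-sided exact permutation test of 3 against 3 libraries gave p = 0.1, the smallest it can give, and 0.2 after Benjamini-Hochberg adjustment over 10 ratio tests, so it cannot pass the threshold. In the other genotypes the ratio was 2.48, 2.32 and 2.37 (dpf-3;alg-1), 3.20, 2.92 and 2.44 (dpf-3), 2.76, 2.90 and 2.35 (alg-2) and 2.48, 3.44 and 1.90 (dpf-3;alg-2), each overlapping with wild type, with exact p from 0.5 to 0.9.

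**Figure D3:**
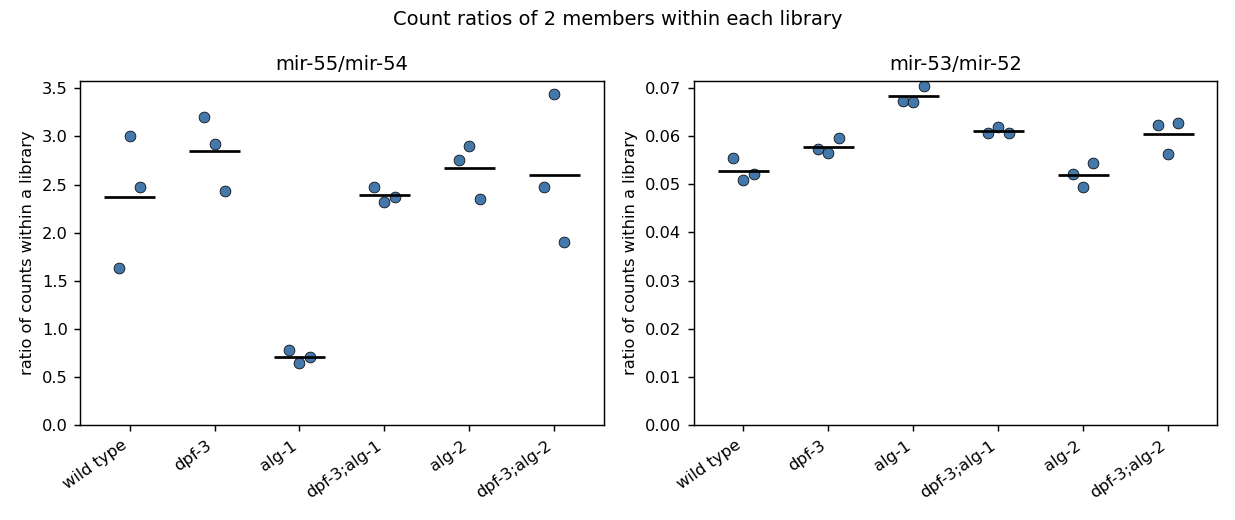
Within-library count ratios of mir-55 to mir-54 (left) and of mir-53 to mir-52 (right), on linear axes from 0, with 1 point per library by genotype and a line at the mean of 3 libraries. The 3 alg-1 libraries lie at 0.648 to 0.776 for the first ratio, below the other 15, and at 0.0672 to 0.0704 for the second, above the other 15.

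mir-53 ran from 4.94% to 7.04% of mir-52 over the 18 libraries. In wild type it was 5.55%, 5.10% and 5.21% of mir-52, in alg-2 5.22%, 4.94% and 5.43%, and in alg-1 6.73%, 6.72% and 7.04%. It was 6.07%, 6.20% and 6.07% in the dpf-3;alg-1 libraries, 5.74%, 5.66% and 5.95% in dpf-3, and 6.24%, 5.64% and 6.26% in dpf-3;alg-2. All 4 genotypes other than alg-2 lay above wild type with no overlap, by log2 differences of 0.37 for alg-1, 0.13 for dpf-3, 0.21 for dpf-3;alg-1 and 0.19 for dpf-3;alg-2 (exact permutation p = 0.1 each, adjusted 0.2). The difference in alg-2 was -0.02 (exact permutation p = 0.8). As the 2 miRNAs are nearly identical, the share may depend on how reads were divided between them, which was not tested.

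The makeup of the family changed accordingly. In alg-1 mir-52 made up 53.3% ± 3.07 of the family, mir-51 17.0% ± 0.707, mir-54 10.3% ± 0.562, mir-56 8.36% ± 1.27, mir-55 7.33% ± 0.934 and mir-53 3.64% ± 0.279 (SD, n = 3). Against wild type the mean shares of mir-52, mir-53 and mir-54 were larger, those of mir-55 and mir-56 smaller and that of mir-51 within 1 SD. In dpf-3;alg-1 mir-52 was at 39.4% ± 0.767, mir-55 at 15.0% ± 0.385 and mir-56 at 13.9% ± 0.258. The mean shares of mir-52 and mir-56 were within 1 SD of wild type, whereas every dpf-3;alg-1 library had a smaller mir-55 share than every wild type library. mir-51 was at 22.9% ± 1.45, its highest mean share of the 6 genotypes.

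**Figure D4:**
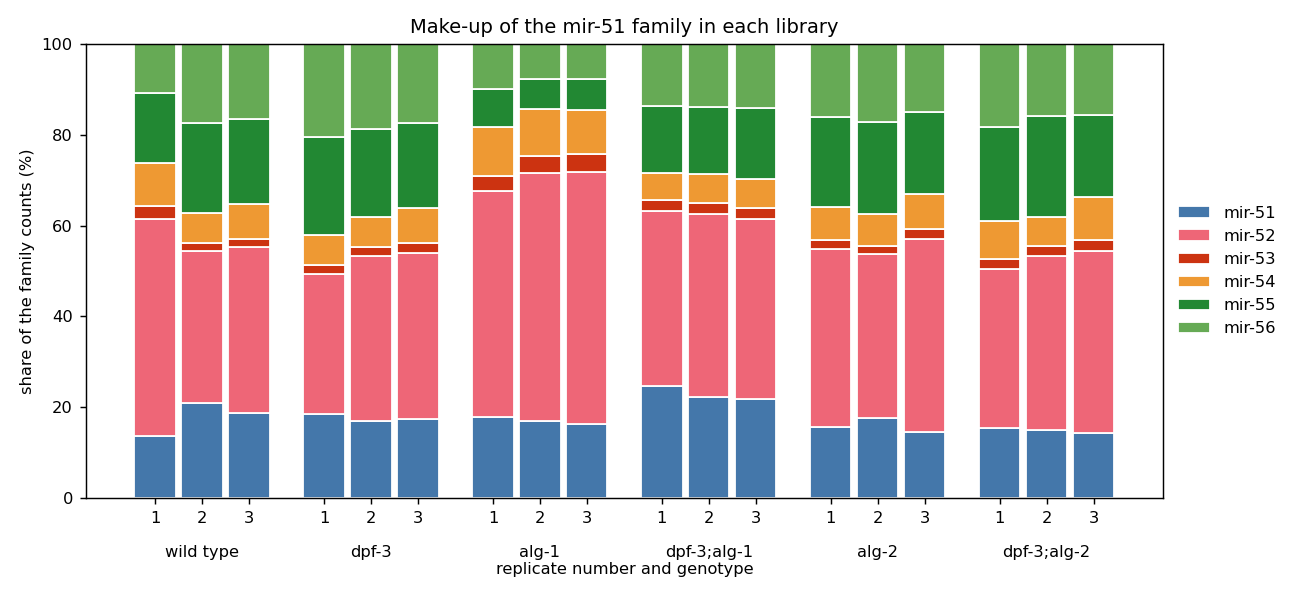
Share of each member in the summed family counts of a library, in percent, stacked by library and grouped by genotype. mir-52 takes 53.3% on average in alg-1 against 39.3% in wild type, and mir-55 takes 7.33% against 18.0%.

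The members moved together differently between genotypes and among libraries of the same genotype. Over the 6 genotype means of log2 CPM, mir-52, mir-53 and mir-54 followed each other with Pearson correlations of 0.95 to 0.99, and mir-51 followed them at 0.69 to 0.85. mir-55 ran opposite to mir-51 at -0.76 and to mir-52, mir-53 and mir-54 at -0.75 to -0.81. alg-1 had the highest mean for mir-51, mir-52, mir-53 and mir-54 and the lowest for mir-55. How far these correlations rest on alg-1 alone was not tested. Over the deviations of the 18 libraries from their genotype means, mir-51, mir-55 and mir-56 moved together at 0.87 to 0.93, mir-52 and mir-53 moved together at 0.91, and the 2 sets ran against each other at -0.62 to -0.84. mir-54 was close to neither set, at -0.36 to 0.50. Over all 9591 pairs of tested miRNAs the correlation of deviations had a median of 0.05, and the middle of its range, from the 5th to the 95th percentile, ran from -0.54 to 0.65. These correlations are a description. Both values of a pair come from the same library, so they share its depth and composition. Without wild type replicate 1, over 17 libraries, mir-51, mir-55 and mir-56 moved together at 0.76 to 0.89 and mir-52 and mir-53 at 0.86, and the 2 sets ran against each other at -0.32 to -0.72.

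**Figure D5:**
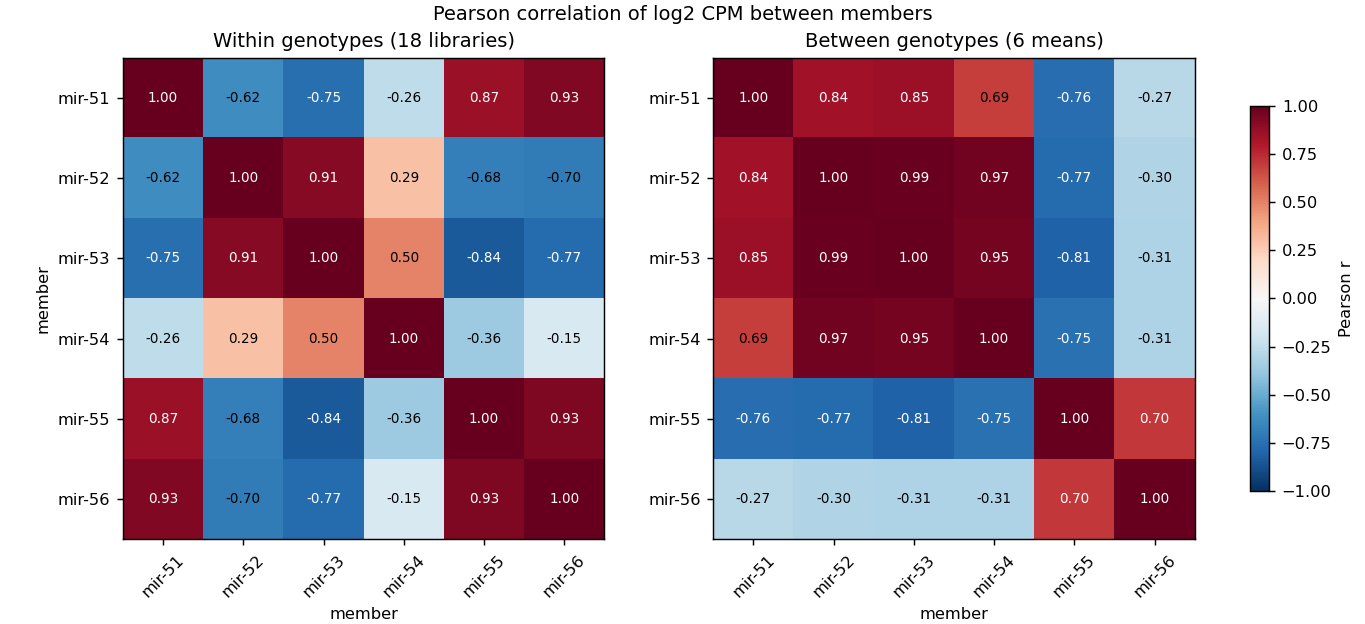
Pearson correlation of log2 CPM between members over the deviations of 18 libraries from their genotype means (left) and over the 6 genotype means (right). mir-51 correlates with mir-55 at -0.76 over genotypes and at 0.87 within them, while mir-52 and mir-53 correlate at 0.99 and 0.91.

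Other miRNAs had profiles over the 6 genotypes as close to a member as the family itself. Likeness was measured as the root mean square difference of centred log2 CPM over the 6 genotype means, whose median over all tested miRNAs was 0.56 to 0.74. Nearest to mir-51 were mir-1824 (0.094), mir-793 (0.121) and mir-61 (0.136). mir-52 was nearest to mir-75 (0.097), mir-54 (0.131) and mir-53 (0.134), and mir-53 to mir-52 (0.134), mir-72 (0.157) and mir-1829c (0.168). The miRNAs nearest to mir-54 were mir-233 (0.083), mir-52 (0.131) and mir-231 (0.139). mir-55 was nearest to mir-84 (0.113), mir-252 (0.126) and mir-259 (0.129), and mir-56 to mir-1 (0.116), mir-254 (0.129) and mir-47 (0.132). mir-52 is thus the only member that 2 other members have among their nearest 3, and mir-51, mir-55 and mir-56 have no family member there.

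The 3 miRNAs listed for a relative that resembles miR-100 or lies beside it in other animals moved in different directions. mir-57, the worm relative of miR-10, was higher in alg-1 than in wild type by a log2 change of 0.64 (adjusted p = 1.2e-05) and changed by -0.65 from alg-1 to the double mutant (adjusted p = 1.2e-05), the directions of mir-52, mir-53 and mir-54. lin-4, the developmental timing miRNA related to miR-125, changed by 0.52 (adjusted p = 3.4e-05) and -0.47 (adjusted p = 0.00013) in these contrasts. let-7, the other timing miRNA, which has another seed and is listed as a genomic neighbour of miR-100 in other animals, went the opposite way, by -1.43 (adjusted p = 1.8e-09) and 1.91 (adjusted p = 8.6e-11). In alg-1, then, 2 of the 3 were higher and 1 was lower, against 42.4% higher and 41.7% lower over all tested miRNAs. In the double mutant against alg-1 the counts were 1 higher and 2 lower, against 34.5% and 41.7%. With calls this common, such counts among 3 miRNAs do not set them apart.

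Markers of cell types moved in the same contrasts as the family, and their part in the result was not tested. Among all tested miRNAs 42.4% were called higher and 41.7% lower in alg-1 against wild type. In alg-1 against wild type 5 of 5 neuronal miRNAs were higher, with summed levels of 1932 to 2650.3 CPM without composition factors against 1199 to 1291. The glial miRNA mir-228 was higher by 1.90, with 18907 to 20489 against 5298 to 5794. Of the intestinal pair, mir-60 was higher (0.65) and mir-243 was not called (-0.32), with summed levels of 2983 to 3462 against 2099.5 to 2671. The muscle miRNA mir-1 did not pass the test (-0.02), at 136519 to 142160.0 against 142271 to 163344. Of the 8 mir-35 family members 7 were lower, with changes down to -5.90, and summed levels of 3308 to 3484 against 116561 to 134718, and mir-42 was not called.

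In dpf-3;alg-1 against alg-1 these lists moved partly the other way. The shares called over all tested miRNAs are those given above as the background of each contrast. mir-228 was lower by a log2 change of -1.61, 2 of 5 neuronal and 2 of 2 intestinal miRNAs were lower, mir-1 was not called, and 7 of 8 mir-35 family members were higher and 1 lower. Summed neuronal levels of 1762 to 2513 overlapped with alg-1, and the mir-35 family summed to 47524 to 90518 CPM on the same scale. In dpf-3 against wild type 8 of 8 mir-35 family members were lower and mir-228 was higher (0.43), with no neuronal, muscle or intestinal marker called, and in alg-2 against wild type 8 of 8 mir-35 family members were lower, and 1 of 5 neuronal miRNAs, mir-1 and mir-228 were higher. In dpf-3;alg-1, 8 of 8 mir-35 family members and 1 of 2 intestinal miRNAs were lower and 4 of 5 neuronal miRNAs higher than in wild type, and against dpf-3 7 of 8 mir-35 family members and 4 of 5 neuronal miRNAs were higher and 1 of 2 intestinal miRNAs lower. In alg-1 against alg-2, 5 of 5 neuronal miRNAs, mir-228 (1.52) and 1 of 2 intestinal miRNAs were higher and mir-1 (-0.40) and the other intestinal miRNA lower, with 1 of 8 mir-35 family members higher and 2 lower. In dpf-3;alg-2 against alg-2, 1 of 5 neuronal miRNAs was lower and no other marker was called. No marker list was at 0 in any genotype. Leaving the mir-35 family out of the table gave the same calls for mir-51, mir-52, mir-53 and mir-54 in alg-1 against wild type.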

How the data were processed

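Small RNA was sequenced from young adult worms in 6 genotypes with 3 libraries each. Per the labels' protocols, worms grew on NGM plates with OP50 bacteria, RNA was extracted with Trizol, the library kit was NEBNext for small RNA, and the gel piece taken lay at about 140 bp. Bowtie 0.12.7 is named in the submitters' processing notes. The sources used here give neither the build nor the counting rules. Coordinates are therefore left out, and WBcel235 served only to find neighbouring miRNA genes.

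The authors deposited expected counts per miRNA, not normalized, with 176 names per library. The last column, which is the sum of 2 others, was used and rounded to whole numbers. What those 2 columns stand for is not stated. The identical values of mir-44 and mir-45 were summed, which left 175 miRNAs. Where the fractions come from is not stated. 17 of 108 member values were fractions at a tolerance of 1e-06.

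The test was edgeR 4.0.16 under R 4.3.3 (TMM factors, filterByExpr, robust quasi-likelihood fit of all 18 libraries with genotype as the term and 12 residual degrees of freedom). Of the 175 miRNAs, 139 passed the filter on low counts and 36 did not. All 6 members passed. The common biological coefficient of variation was 14.0%. P-values were adjusted over the 139 miRNAs of each contrast. SE is the log2 change divided by the square root of its F statistic, and intervals are 95%. CPM use the library total multiplied by the TMM factor as the denominator. Two-sided exact permutation tests were used for within-library ratios. Alternatives were other composition factors (RLE, upper quartile, none), scaling without the mir-51 family, a table without the mir-35 family (131 miRNAs tested) and other filters. Further ones were DESeq2 1.42.0, limma-voom (limma 3.58.1), the groups of a contrast alone, a replicate block, a required 1.5-fold change, mir-52 and mir-53 summed, unrounded counts for the ratios, and leaving out each library.

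Replicate numbers are shared between genotypes. Of 15 pairs of genotypes, 1 (alg-1 and alg-2) had same-numbered libraries that deviated together in every pair (correlations of 0.138 to 0.273), although these lie in different library sets, and the block changed no call in that contrast. The cutoff was a correlation over 0.1 in every pair, which the other genotype pairs did not meet. Of these, dpf-3 and dpf-3;alg-1 had 0.445 and 0.426 for replicates 1 and 2 and -0.164 for replicate 3. Whether same-numbered libraries were handled together is not known here. Every pair of libraries within a genotype differed by more than sampling noise. miRNA counts do not measure the mutated genes, so the genotype labels were not checked on them.

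All 6 members are named in every contrast, with the 3 miRNAs of the most similar profile for each member and the members of the context and marker lists. The family, these lists and the alternatives were chosen with earlier results of these data known.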

Additional observations from a re-analysis of the deposited data

Results flagged for a closer look

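The effect of the dpf-3 mutation differed between backgrounds for 4 of the 6 members, by an edgeR quasi-likelihood test of the difference itself with Benjamini-Hochberg adjustment. Between the alg-1 and wild type backgrounds the difference of log2 changes was -0.96 for mir-52, -1.25 for mir-53 and -1.25 for mir-54, while 28.8% of all tested miRNAs had a positive and 40.3% a negative difference at the threshold. In the alg-1 background dpf-3 went with a lower level of all 3, whereas in the wild type background their log2 changes were -0.14, -0.02 and -0.13. Between the alg-1 and alg-2 backgrounds the difference was -0.82 for mir-52, -1.20 for mir-53, -1.30 for mir-54 and 0.54 for mir-55, against 30.9% positive and 35.3% negative over all miRNAs. The mir-55 difference no longer passed in 5 of the 12 fits that left out a library and was -0.63 with upper quartile factors. The second comparison spans the library sets, but each dpf-3 effect in it lies within 1 set, so a log2 shift shared by a set drops out. A dpf-3 effect that depended on the set would not drop out. The second comparison shares the alg-1 and dpf-3;alg-1 libraries with the first, so the comparisons are not independent. The level of the 3 members in dpf-3;alg-1 was nearer to wild type than to alg-1, as the report gives.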

How the results depend on the processing

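The calls of mir-51, mir-52, mir-53 and mir-54 in alg-1 against wild type held under every alternative run, as did those of mir-52, mir-53 and mir-54 in dpf-3;alg-1 against alg-1 and in the difference of dpf-3 effects between alg-1 and wild type. Leaving out single libraries gave log2 changes of 1.33 to 1.46 for mir-52, 1.67 to 1.86 for mir-53, 1.27 to 1.40 for mir-54 and 0.64 to 1.05 for mir-51 in alg-1 against wild type. The call of mir-55 in alg-1 was the fragile one: 0 members were lower with upper quartile factors, without a filter on low counts (-0.31) or with a required 1.5-fold change, against 1 in the report. Over all tested miRNAs 25 of 139 were lower with upper quartile factors and 53 of 161 without a filter.

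Upper quartile factors moved the median log2 change of all miRNAs from -0.08 to 1.07 in alg-1 against wild type and from -0.14 to -1.27 in dpf-3;alg-1 against alg-1. Relative to that median the change of mir-52 was 1.46 to 1.48 and that of mir-55 -0.30 to -0.29 under TMM, RLE, upper quartile and no factors. With upper quartile factors 19 of 78 signs turned, over 6 members and all contrasts. In 10 of these the member was called under neither scaling. In the other 9, mir-55 was 0.78 in alg-1 against wild type, mir-55 -0.76 and mir-56 -1.06 in dpf-3;alg-1 against alg-1, and mir-51 0.63 and mir-52 0.86 in dpf-3;alg-2 against wild type. In the differences of dpf-3 effects mir-55 was -1.23 (alg-1 against wild type background), and mir-51, mir-55 and mir-56 were -1.07, -0.63 and -0.91 (alg-1 against alg-2 background). The counts of members called with these factors, each with the count over all 139 miRNAs, were 2 higher in dpf-3 against wild type (57 over all), 0 higher with 6 lower in dpf-3;alg-1 against alg-1 (22 and 101), 0 higher with 2 lower in dpf-3;alg-1 against dpf-3 (19 and 56), 6 higher in alg-2 (104) and 6 higher in dpf-3;alg-2 (111) against wild type, 0 lower in dpf-3;alg-2 against alg-2 (5), and 4 higher in dpf-3;alg-2 against dpf-3 (94). For the differences of effects they were 6 lower in alg-1 against wild type (104), 1 lower in alg-2 against wild type (33), and 0 higher and 6 lower in alg-1 against alg-2 (18 and 96).

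A required 1.5-fold change left 0 members higher in dpf-3;alg-1 against alg-1, 1 higher in dpf-3;alg-1 against wild type and 1 against dpf-3, 0 higher in alg-2 against wild type, 0 lower in dpf-3;alg-2 against alg-2 and 0 higher in the difference between alg-1 and alg-2. For that size rule no count over all miRNAs was taken. With the groups of a contrast alone, 2 were higher in dpf-3;alg-1 against alg-1 (55 of all 134 tested) and 0 in alg-2 against wild type (20 of 133). In the same kind of fit 0 were lower in dpf-3;alg-2 against alg-2 (9 of 132) and 2 in alg-1 against alg-2 (62 of 136). In alg-2 against wild type 1 member was higher with RLE factors (33 of all 139), without the mir-35 family (35 of 131), without a filter (33 of 161) or with DESeq2 (35 of 139). With the strict filter 0 were higher (22 of 126), against 2 in the report. The count lower in dpf-3;alg-2 against alg-2 was 0 without composition factors (8 of all 139) and 0 with mir-52 and mir-53 summed (7 of 138). In alg-1 against alg-2, 2 were lower without composition factors (63 of all 139) and 2 without the mir-35 family (60 of 131). Without the mir-35 family 1 was higher in the difference between alg-1 and wild type (40 of all 131) and 2 in that between alg-1 and alg-2 (51 of 131).

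With the replicate block 1 member was higher in alg-2 against wild type (32 of all 139 miRNAs), as mir-55 was not called (0.36, adjusted p = 0.053). In dpf-3;alg-2 against alg-2 0 were lower (7 of all 139). With the block within each library set both counts were 0 (16 and 6 of all 139). For alg-2 against wild type this last block compares fitted replicate 1 levels of each set, so its 0 cannot decide whether the calls hold. The blocks changed no other call. Of the 18 libraries 6 were closest in their deviations to libraries of their own number, so the numbers are not used as pairs, apart from the alg-1 and alg-2 check in the processing notes.

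Each library was also left out in turn, and the count over all 139 or 140 tested miRNAs is given in brackets. In dpf-3 against wild type 0 to 1 member was higher (15 to 20), and in alg-1 against wild type 0 to 1 was lower (54 to 60). In dpf-3;alg-1, 0 to 1 was higher against alg-1 (45 to 50) and 2 to 3 against wild type (28 to 37). In alg-2 against wild type 0 to 2 were higher (23 to 44). In dpf-3;alg-2, 0 to 1 was lower against alg-2 (5 to 9) and 0 to 1 higher against dpf-3 (5 to 23). Against wild type 0 to 1 was higher (32 to 40) and 0 to 1 lower (17 to 25) in dpf-3;alg-2. In alg-1 against alg-2, 1 to 2 were lower (51 to 60). For the differences of effects 0 to 1 was lower between alg-2 and wild type (5 to 21) and 0 to 1 higher between alg-1 and alg-2 (40 to 49). The log2 difference of the mir-53 to mir-52 ratio in alg-2 ran from -0.056 to 0.012, and that of the mir-55 to mir-54 ratio from -0.19 to 0.25 in dpf-3;alg-1, -0.037 to 0.40 in alg-2 and -0.11 to 0.34 in dpf-3;alg-2. The causes of these changes were not tested. Depth did not limit the members, whose lowest count was 11426.5.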
